A study of Mus musculus with 24 samples.

Results

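The comparison of somatostatin (SST) with vasoactive intestinal peptide (VIP) interneurons takes in every library that the labels place in the subtypes SST and VIP, which is 12 of the 24 libraries in the series. Each subtype has 6 libraries. All are bulk RNA-seq libraries of neurons taken live from the cortex of adult mice by fluorescence-activated sorting, as cells that excluded the dye DAPI and carried GFP or tdTomato from a transgenic reporter. The labels do not name the reporter line, the driver of the reporter, the strain, the age in days or the number of animals in a library, and p-values therefore cover only the spread among these samples, which may be technical. The other subtypes, EXC and PV, also have 6 libraries each; they share the estimate of spread and are quoted as levels for context.

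The SST libraries come from 4 male and 2 female samples (the females are replicates 4 and 6), and the VIP libraries from 2 male and 4 female samples. The labels put 5 SST libraries and VIP replicates 1 and 3 in the sequencing pool POOL7098, SST replicate 5 in POOL7100, and VIP replicates 2, 4, 5 and 6 in POOL7099. The pool is therefore partly confounded with the subtype, and POOL7098 is the one pool with libraries of both. The question asked is which genes separate these interneuron classes and which of the differences also appear within POOL7098.

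SST and VIP interneurons are GABAergic inhibitory neurons of the cortex. Classical SST cells, among them the Martinotti cells, place synapses on the distal dendrites of pyramidal neurons and arise from the medial ganglionic eminence of the embryo. VIP cells arise from the caudal ganglionic eminence, and many of them inhibit other interneurons, SST cells included, so that their activity can release pyramidal neurons from inhibition. Each class is named for the peptide that it makes and packs into vesicles beside GABA.

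Total counts ran from 5508099 to 15978459 reads in SST and from 4528457 to 7755954 reads in VIP, a difference in mean depth with p = 0.0087 in an exact two-sided permutation test, so near-zero levels are resolved better in SST. Levels are given as CPM, the usual depth-scaled read count, after scaling of library sizes by the trimmed mean of M-values (TMM). The 37 genes of the mitochondrial genome held 4.41% to 7.87% of the reads in SST and 1.80% to 16.6% in VIP, with VIP replicates 2, 4 and 5 above 10%. Summed markers of striatal projection neurons were higher in SST, at 2751, 1743, 2941, 882, 1599 and 918 CPM in replicates 1 to 6 against 631 to 852 CPM in VIP (exact p = 0.0022, the smallest that 6 against 6 libraries allow). SST replicates 1 and 3 were highest and the female replicates 4 and 6 lowest, yet all 6 lay above every VIP library. Penk is on this list and on the VIP marker list, and it was not called. It gave a large part of the VIP sums, and its levels are given below. Results that these libraries could carry are therefore also given without SST replicates 1 and 3, or without VIP replicates 2, 4 and 5, choices made after the data were seen. In bulk RNA, fewer cells of a type and less RNA per cell cannot be told apart.

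The defining genes matched the labels in all 12 libraries. Sst, which encodes the somatostatin precursor, stood at 1189, 1343, 1422, 1262, 701 and 1028 CPM in SST replicates 1 to 6 and at 3.496, 1.96, 3.87, 0.629, 17.7 and 0.1198 CPM in VIP replicates 1 to 6. Every SST library was far above every VIP library, and VIP replicate 5 held the most Sst among the VIP libraries. The log2 fold change was 8.0 ± 0.82 (SE; adjusted p = 2.1e-08) in favour of SST. Vip, which encodes the VIP precursor, stood at 1768, 1724, 1634, 1776, 1744 and 1715 CPM in VIP replicates 1 to 6 and at 1.24, 1.6, 2.23, 1.94, 0.399 and 0.9798 CPM in SST replicates 1 to 6. The VIP libraries spanned a narrow range for this gene and did not overlap with SST, and the log2 fold change was 10.37 ± 0.56 (adjusted p = 1.1e-13) in favour of VIP. The levels elsewhere were low for Vip, at 0.756 ± 0.589 CPM in PV and 1.58 ± 2.13 CPM in EXC (SD, n = 6 each), and intermediate for Sst, at 58.8 ± 51.8 CPM in PV and 26.04 ± 24.9 CPM in EXC. Since the sorts were made for these cells, both genes check the labels.

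The promoters of these defining genes are shown because both are classical targets of cyclic AMP signalling, which acts through the cyclic AMP response element TGACGTCA, a palindrome that reads alike on both strands, or through its shorter form TGACG on either strand (CGTCA when read on the strand shown). The sequences are the 250 bases before the 1 start per gene used in the promoter table, 5′ to 3′ along the gene, from RefSeq on GRCm38.p6, with matches in capitals. The Sst stretch is chr16:23890845-23891094 on the minus strand and the Vip stretch is chr10:5638968-5639217 on the plus strand. The RefSeq gene spans are wider than those starts imply, at chr16:23889573-23891342 for Sst and chr10:5639193-5647617 for Vip, so the Sst stretch lies within the annotated gene and the Vip stretch ends within it.
Sst: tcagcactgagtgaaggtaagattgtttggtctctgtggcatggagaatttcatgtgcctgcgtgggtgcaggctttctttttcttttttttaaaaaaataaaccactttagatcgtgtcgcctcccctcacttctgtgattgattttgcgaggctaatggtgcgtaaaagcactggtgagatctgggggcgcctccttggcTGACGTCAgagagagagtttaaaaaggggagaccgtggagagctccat
Vip: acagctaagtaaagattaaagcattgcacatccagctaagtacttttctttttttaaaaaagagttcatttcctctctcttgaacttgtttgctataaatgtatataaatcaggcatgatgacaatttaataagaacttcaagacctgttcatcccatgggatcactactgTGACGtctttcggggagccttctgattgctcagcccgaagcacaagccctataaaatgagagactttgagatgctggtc
The Sst stretch held 1 full element, whose first base lay 48 bases before that start and which contains both short forms in an overlap. The Vip stretch held no full element and 1 short form, TGACG, 79 bases before its start. Of all 32851 promoter windows of this length in the table, 1.55% held the full element and 17.8% at least 1 short form. These matches describe the letters only, and no binding was measured.

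The quasi-likelihood test of edgeR, with sex as a covariate and Benjamini-Hochberg adjustment over all 14890 genes tested, called 4658 genes, or 31.3%, at an adjusted p under 0.05. Of these, 2168 genes (14.6%) were higher in SST and 2490 genes (16.7%) were higher in VIP. The median log2 fold change over all genes tested was -0.0033. A log2 fold change of at least 2 was reached by 480 called genes in SST and 974 in VIP, and one of at least 5 by 61 and 55. For 1600 genes (10.7%) all 6 SST libraries lay above all 6 VIP libraries, and for 1524 genes (10.2%) the reverse held. The thresholded test, which asks for more than a 2-fold difference, called 536 genes in SST and 788 in VIP.

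Within POOL7098, where 5 SST and 2 VIP libraries were sequenced together, 6868 of 16449 genes (41.8%) were called, 3386 (20.6%) higher in SST and 3482 (21.2%) higher in VIP. That count rests heavily on VIP replicate 1, since without it, with VIP replicate 3 as the only VIP library and assumed to vary like the SST libraries, 1528 and 1642 genes were called. Of the 2155 genes higher in SST in all libraries and tested in both fits, 1940 (90.02%) were also called higher in SST within the pool and all 2155 kept their sign. Of the 2470 genes higher in VIP, 2155 (87.2%) were called within the pool, 2459 kept their sign and 0 were called in the opposite direction. The 7 libraries of the pool are among the 12, so this shows what remains among libraries sequenced together and is no independent replication. Keeping to the pool drops VIP replicates 2, 4, 5 and 6, and with them every VIP library over 10% mitochondrial reads. Pool and mitochondrial share thus change together here. This fit also shares VIP replicates 1 and 3 with the fit without VIP replicates 2, 4 and 5, so those fits are not separate checks.

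**Figure D1:**
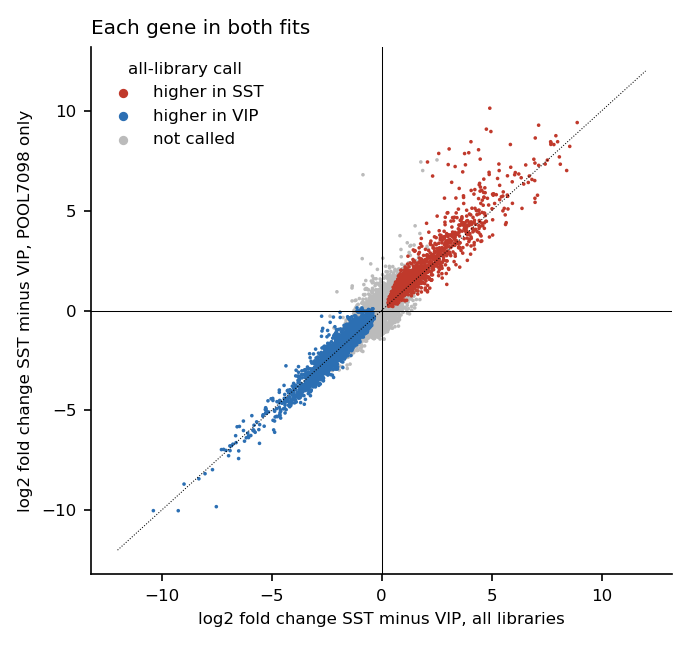
Log2 fold change of SST minus VIP for each gene tested in both fits, over all libraries (horizontal axis) and within POOL7098 (vertical axis), coloured by the all-library call; the dotted line marks equal values. Of the 2155 genes higher in SST in the fit to all libraries, 1940 were called within the pool too, and of the 2470 higher in VIP, 2155 were.

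The difference between the subtypes was not found to depend on sex. The interaction term gave 0 genes at an adjusted p under 0.05 in edgeR and 0 genes in DESeq2, with 191 genes (1.28%) at an unadjusted p under 0.05 in edgeR. With 2 female SST and 2 male VIP libraries, single genes are estimated imprecisely, and a missed threshold does not show that the sexes act alike. Of 5 sex-linked genes tested, Xist, Eif2s3y and Kdm5d were called higher in VIP although sex was a covariate.

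Among genes with at least 10 CPM in the higher subtype, the largest differences towards SST included peptide, transcription factor and muscle-type myosin genes. Pdyn, the prodynorphin precursor of opioid peptides, measured 133 to 235 CPM (median 179.9) in SST and 0 to 0.7997 CPM (median 0.472) in VIP and differed by 8.55 ± 0.52 (adjusted p = 1.2e-12) on the log2 scale. Moxd1, a relative of dopamine beta-hydroxylase, measured 57.9 to 104 CPM (median 85.3) in SST and 0 to 0.933 CPM (median 0.09199) in VIP, with 8.41 ± 0.54 (adjusted p = 2.6e-12). Like the other leading genes, both were admitted only because their libraries did not overlap. Crhbp, which binds and sequesters corticotropin-releasing hormone, measured 95.8 to 183 CPM (median 126) in SST and 0 to 2.02 CPM (median 0.703) in VIP and differed by 7.44 ± 0.54 (adjusted p = 4e-11). Oprd1, the delta opioid receptor, measured 31.6 to 59.5 CPM (median 48.2) in SST and 0 to 0.754 CPM (median 0) in VIP and differed by 7.83 ± 0.44 (adjusted p = 2.8e-13). Oprd1 was also present in PV, at 132 ± 36.2 CPM, whereas Pdyn stood at 2.93 ± 3.05 CPM there. The log2 changes of Pdyn, Moxd1, Crhbp and Oprd1 within POOL7098 were 8.22, 7.01, 7.34 and 8.31.

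The genes at the edge of detection in VIP are given by their read totals. Myh13 had 1910 reads over the 6 SST libraries and 3 over the 6 VIP libraries, a ratio of summed normalised reads of 320.4 (95% counting interval 109 to 1555). Myh4 had 1006 and 3 reads, a ratio of 169 (95% counting interval 57.6 to 819.8). Both encode myosin heavy chains of striated muscle and belong to a cluster of similar genes, so reads could be shared between members and the split is uncertain. Otof, which encodes otoferlin, a calcium sensor of vesicle fusion in cochlear hair cells, had 1150 and 3 reads, a ratio of 193 (95% counting interval 65.9 to 937). These intervals cover counting error only.

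Several of the leading SST genes are also known from striatal projection neurons, and their levels are given by library for that reason. Tac1, the precursor of substance P, stood at 118, 100.2, 109, 50.3, 91.8 and 39.3 CPM in SST replicates 1 to 6 and reached at most 1.33 CPM in VIP. Ankrd63, an ankyrin repeat gene, stood at 49.8, 27.02, 68, 15.1, 28.3 and 18.02 CPM in SST and at most 0.552 CPM in VIP. Pdyn stood at 235, 133, 228, 179, 181 and 151 CPM in SST. SST replicates 1 and 3 were highest for Tac1, Ankrd63 and Pdyn, as they were for the summed striatal markers. Replicates 4 and 6 were lowest for Tac1, Ankrd63 and those sums, but not for Pdyn. The likeness of these orders was not tested. The log2 fold changes were 6.96 ± 0.43 for Tac1 and 7.54 ± 0.59 for Ankrd63 (adjusted p = 1.5e-12 and 1.5e-10). Without SST replicates 1 and 3 they were 6.85 and 7.18, with 8.48 for Pdyn.

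Of the 17 striatal projection neuron markers tested, 15 were called higher in SST and the other 2 not called, with a median log2 fold change of 4.21, against 14.6% called higher in SST and a median of -0.0033 over all genes. Without SST replicates 1 and 3 the count was 15 of 17 and the median 4.01, and within POOL7098 16 of 18 and 4.86. Ppp1r1b, which encodes the phosphatase inhibitor DARPP-32, stood at 232, 120.4, 308, 38.3, 142 and 65.5 CPM in SST replicates 1 to 6 against at most 11 CPM in VIP. Adora2a, an adenosine receptor of striatopallidal neurons, stood at 54.97, 23.6, 44.4, 4.15, 19.96 and 11.8 CPM in SST and at most 0.754 CPM in VIP. For both of these genes SST replicates 4 and 6 were the lowest of SST, and the libraries of the subtypes did not overlap. The log2 fold changes were 4.88 ± 0.66 (adjusted p = 2.3e-06) for Ppp1r1b and 5.44 ± 0.62 (adjusted p = 1.4e-07) for Adora2a, and without VIP replicates 2, 4 and 5 they were 7.23 and 5.83. Foxp2, a forkhead transcription factor, differed by 5.94 ± 0.43 (adjusted p = 2.9e-11), and Pde10a, a striatal phosphodiesterase, by 1.51 ± 0.23 (adjusted p = 1.6e-05). The part of other cells in the SST sort was not tested, so Drd1, Drd2, Tac1, Pdyn and Penk are reported beside these values.

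The genes with the largest differences towards VIP, after Vip itself, included 2 of acetylcholine handling. Chat, the enzyme that makes acetylcholine, had 596 reads over the 6 VIP libraries and 1 read over the 6 SST libraries, a ratio of summed normalised reads of 1184 (95% counting interval 212 to 46849). Slc18a3, the vesicular acetylcholine transporter encoded within the Chat gene, had 616 and 1, a ratio of 1224 (95% counting interval 219 to 48418). The annotation places these genes on overlapping positions, so their reads are not fully independent. Slc5a7, the choline transporter that supplies the pathway from a separate locus, measured 0.533 to 4.15 CPM (median 1.81) in SST and 89.7 to 197 CPM (median 142) in VIP. Its libraries did not overlap, and it differed by 6.04 ± 0.37 (adjusted p = 1.5e-12) on the log2 scale.

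Edn3, the vasoactive peptide endothelin 3, measured 0 to 0.335 CPM (median 0) in SST and 7.05 to 18.7 CPM (median 16.6) in VIP and differed by 7.18 ± 0.86 (adjusted p = 3.2e-07). Sycp1, a component of the meiotic synaptonemal complex, measured 0 to 0.247 CPM (median 0) in SST and 2.76 to 32.05 CPM (median 6.24) in VIP and differed by 7.69 ± 0.85 (adjusted p = 3.8e-07). Rag1, a recombinase known from lymphocytes, measured 0 to 0.268 CPM (median 0) in SST and 7.25 to 15.97 CPM (median 12.5) in VIP and differed by 6.50 ± 0.71 (adjusted p = 3.3e-07). These are genes with established roles outside the cortex that were near 0 in SST. Col24a1, a fibrillar collagen gene, measured 0 to 0.297 CPM (median 0.224) in SST and 14.6 to 40.3 CPM (median 23.2) in VIP and differed by 7.07 ± 0.74 (adjusted p = 2.8e-08). Frem1, a basement membrane protein gene, measured 0 to 0.333 CPM (median 0.208) in SST and 7.44 to 28.7 CPM (median 20.1) in VIP and differed by 6.49 ± 0.79 (adjusted p = 4.1e-07). The rule that named these 5 genes admitted only genes without overlap. Of the 165 genes named, 80 overlap another annotated gene in RefSeq, and reads in such stretches cannot be assigned without the strand.

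**Figure D2:**
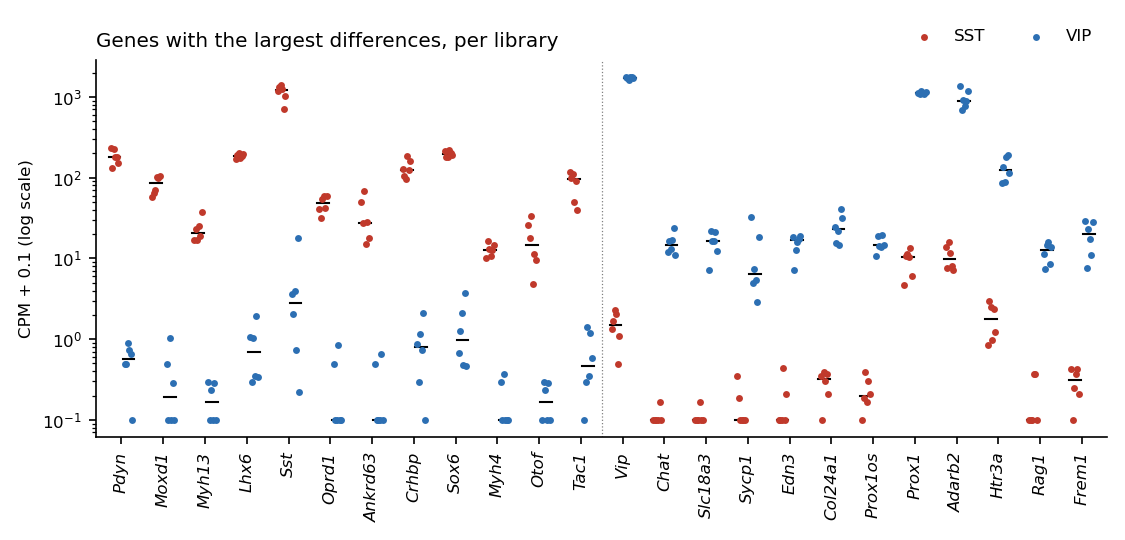
TMM-scaled CPM plus 0.1 on a log axis in each SST and VIP library for the 12 genes with the largest difference in each direction, left of the dotted line towards SST and right of it towards VIP; points are libraries and bars are medians of 6. The rule admitted only genes whose libraries do not overlap between the subtypes, and Vip measured 1634 to 1776 CPM (median 1734) in its own sort and Sst 701 to 1422 CPM (median 1225).

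The transcription factors that mark the embryonic origin separated the sorts. Of the 11 genes tested on the medial ganglionic eminence list, 7 were higher in SST, 2 higher in VIP and 2 not called, with a median log2 fold change of 2.96, or 1.42 with the pool as a covariate. These and the counts over all libraries that follow stand against 14.6% of all genes higher in SST, 16.7% higher in VIP and a median of -0.0033. Counts within POOL7098 stand against 20.6% and 21.2% of 16449 genes and a median of 0.032. The fit without VIP replicates 2, 4 and 5 called 2776 higher in SST and 2801 higher in VIP of 16355 genes. That without SST replicates 1 and 3 called 2046 and 1813 of 15729. Lhx6, a LIM homeobox factor needed for SST and PV cells, measured 169 to 203 CPM (median 188) in SST and 0.196 to 1.84 CPM (median 0.592) in VIP. Sox6, which acts after Lhx6, measured 179 to 218 CPM (median 197) in SST and 0.359 to 3.68 CPM (median 0.879) in VIP. Neither overlapped, with log2 fold changes of 8.08 ± 0.43 (adjusted p = 1.1e-13) and 7.14 ± 0.52 (adjusted p = 4.3e-11). Both were also high in PV, at 129 ± 15.9 CPM for Lhx6 and 228 ± 22.99 CPM for Sox6 (SD, n = 6). Satb1, a chromatin organiser required for SST cell maturation, measured 739.7 to 1097 CPM (median 935) in SST and 49.3 to 72.6 CPM (median 63.5) in VIP and differed by 3.92 ± 0.15 (adjusted p = 2.8e-16). Tox, a high mobility group factor, differed by 4.49 ± 0.41 (adjusted p = 2.2e-09) in the same direction. The members that went the other way were Zeb2, a zinc finger homeobox factor, at 315 to 797 CPM (median 439) in SST and 1052 to 1457 CPM (median 1301) in VIP and a difference of 1.36 ± 0.17 (adjusted p = 3.8e-07) towards VIP, and Maf, at 49.9 to 148 CPM (median 86.5) in SST and 125 to 214 CPM (median 163) in VIP. Maf libraries overlapped, its difference was 0.89 ± 0.26 (adjusted p = 0.011) towards VIP, and without SST replicates 1 and 3 it lost the call (adjusted p = 0.1), as it did without VIP replicate 1 (adjusted p = 0.059).

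Of the 13 genes on the caudal ganglionic eminence list, 12 were higher in VIP and 1, Meis2, higher in SST, with a median of -1.81. Prox1, a homeobox factor that directs caudal interneuron migration and maturation, measured 4.62 to 13.2 CPM (median 10.3) in SST and 1077 to 1171 CPM (median 1128) in VIP. The VIP range was narrow and far above SST, and the difference was 6.89 ± 0.26 (adjusted p = 1.8e-16). Its antisense neighbour Prox1os differed by 6.90 ± 0.45 (adjusted p = 8.7e-11), but no source used here gives the strand setting of the counting, so their reads cannot be told apart where they overlap. Adarb2, a brain-specific member of the adenosine deaminase family, measured 7.08 to 15.9 CPM (median 9.71) in SST and 687 to 1348 CPM (median 893) in VIP and differed by 6.61 ± 0.33 (adjusted p = 2.6e-14). Sp8, a zinc finger factor, measured 0.889 to 3.59 CPM (median 2.61) in SST and 40.1 to 92.2 CPM (median 60.4) in VIP and differed by 4.76 ± 0.41 (adjusted p = 8.8e-10). Nfix, a nuclear factor I gene, measured 18.4 to 27.1 CPM (median 19.9) in SST and 222 to 412 CPM (median 273) in VIP and differed by 3.73 ± 0.23 (adjusted p = 1.5e-12). Meis2, a homeobox factor that is also on the striatal list, measured 94.8 to 246 CPM (median 164) in SST and 0.958 to 11.6 CPM (median 3.71) in VIP, with 5.04 ± 0.37 (adjusted p = 4.9e-11) towards SST. Adarb2 stood at 1.15 ± 1.001 CPM in PV, whereas Prox1 was also high in EXC, at 942 ± 103 CPM.

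Genes shared by GABAergic neurons were split. Of 14 tested, 3 were higher in SST, 5 higher in VIP and 6 not called, with a median of 0.01. Gad2, which encodes one glutamate decarboxylase, measured 3258 to 5243 CPM (median 4532) in SST and 2336 to 3290.2 CPM (median 2885) in VIP and was higher in SST by 0.62 ± 0.21 (adjusted p = 0.026), while Gad1, which encodes the other, measured 576 to 1137 CPM (median 791) in SST and 895 to 1630.2 CPM (median 1284) in VIP and was higher in VIP by 0.61 ± 0.19 (adjusted p = 0.016). Both genes overlapped between the subtypes. Gad1 was not called within POOL7098 (adjusted p = 0.12) nor without SST replicates 1 and 3 (adjusted p = 0.17) or without VIP replicate 1 (adjusted p = 0.067). Gad2 was not called without VIP replicates 2, 4 and 5 (adjusted p = 0.096), nor without any 1 of VIP replicates 1, 2 and 5 or SST replicates 4, 5 and 6 (adjusted p from 0.051 to 0.081). It was also not called with the pool as a covariate (adjusted p = 0.059), in DESeq2 (adjusted p = 0.067), with the size factors of DESeq2 in edgeR (adjusted p = 0.068) or with a filter of 5 CPM (adjusted p = 0.052). Slc32a1, the vesicular GABA transporter, measured 158 to 206 CPM (median 167) in SST and 87.99 to 207 CPM (median 136) in VIP and was not called (adjusted p = 0.52), though within POOL7098 it was called higher in SST (adjusted p = 0.0072). The homeobox genes Dlx1 and Dlx2, which specify GABAergic fate, were higher in VIP by 1.62 ± 0.23 (adjusted p = 4.1e-06) and 1.33 ± 0.30 (adjusted p = 0.0012). The transcript Dlx6os1, antisense to Dlx6, was higher in VIP by 3.28 ± 0.27 (adjusted p = 4.4e-10), with the same limit on strand. Erbb4, the neuregulin receptor of interneurons, measured 432 to 1003 CPM (median 691) in SST and 1557 to 2777 CPM (median 2206) in VIP and differed by 1.68 ± 0.23 (adjusted p = 3.4e-06) towards VIP.

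Neuropeptide genes were called on both sides. Of 24 precursor and related secreted genes tested, 13 were higher in SST, 7 higher in VIP and 4 not called, with a median of 0.84. On the SST side, Npy, the precursor of neuropeptide Y, measured 135 to 254 CPM (median 191) in SST and 23.1 to 82.6 CPM (median 46.98) in VIP and differed by 1.99 ± 0.32 (adjusted p = 3.3e-05). Cort, which encodes cortistatin, a relative of somatostatin, measured 9.15 to 18.8 CPM (median 12.3) in SST and 0.971 to 4.896 CPM (median 2.84) in VIP and differed by 2.33 ± 0.46 (adjusted p = 0.00032). Cartpt, the precursor of the CART peptides, measured 11.7 to 39.6 CPM (median 19.1) in SST and 0 to 0.587 CPM (median 0.2304) in VIP and differed by 6.46 ± 0.64 (adjusted p = 1.2e-08). None of these overlapped, although Npy was well above 0 in every VIP library.

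On the VIP side, Tac2, the precursor of neurokinin B, measured 2.64 to 17.3 CPM (median 4.903) in SST and 279 to 624 CPM (median 459) in VIP and differed by 5.90 ± 0.37 (adjusted p = 2.5e-12). Crh, which encodes corticotropin-releasing hormone, measured 7.33 to 19.02 CPM (median 9.202) in SST and 184 to 255 CPM (median 215) in VIP and differed by 4.26 ± 0.30 (adjusted p = 1.7e-11), opposite to its binding protein Crhbp. Pthlh, which encodes a parathyroid hormone-like peptide, measured 1.34 to 4.44 CPM (median 3.47) in SST and 52.3 to 85.97 CPM (median 69.3) in VIP and differed by 4.40 ± 0.30 (adjusted p = 1.2e-11). Cck, the cholecystokinin precursor that marks a subset of VIP cells, measured 21.9 to 40.1 CPM (median 24.6) in SST and 127 to 444 CPM (median 251) in VIP and differed by 3.27 ± 0.32 (adjusted p = 8.9e-09). Each of these 4 genes was separated between the sorts, and the change of Cck was smaller within POOL7098, at 2.16. Penk, the proenkephalin precursor, stood at 576, 406, 697, 172, 284 and 169 CPM in SST replicates 1 to 6 and 382 to 629.9 CPM (median 510) in VIP, with overlap and no call (adjusted p = 0.19). Without SST replicates 1 and 3 it was higher in VIP by 0.96 (adjusted p = 0.022). Scg2, a granin of dense-core vesicles, measured 575 to 850 CPM (median 629.8) in SST and 521 to 597 CPM (median 574) in VIP and was not called (adjusted p = 0.15).

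Per unit of gene length, in the authors' size-factor-adjusted RPKM, some peptide and related secreted genes of a sort can be ordered. In SST the means were 1117 RPKM for Sst, 206 for Npy, 127 for Penk, 45.8 for Crhbp, 41.9 for Pdyn, 30.4 for Tac1 and 14.1 for Cartpt. In VIP they were 675 RPKM for Vip, 307 for Tac2, 177 for Penk, 165 for Cck, 99.3 for Crh, 55.5 for Npy and 27.8 for Pthlh. Among the genes listed, the gene that names each sort stood highest in both. Other members of the precursor list, Scg2 and Cort among them, were not placed in this order.

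Receptors for peptides were more often higher in SST. Of 34 tested, 17 were higher in SST, 8 higher in VIP and 9 not called, with a median of 1.37. Tacr1, the substance P receptor and a marker of long-range SST cells that make nitric oxide, measured 17.7 to 57.2 CPM (median 40.5) in SST and 0 to 2.02 CPM (median 1.23) in VIP and differed by 5.05 ± 0.55 (adjusted p = 6.8e-08). Prokr2, a prokineticin receptor, measured 14.9 to 35.7 CPM (median 24.9) in SST and 0 to 1.07 CPM (median 0.281) in VIP and differed by 5.95 ± 0.50 (adjusted p = 6.3e-10). Cckbr, the brain cholecystokinin receptor, measured 10.1 to 17.1 CPM (median 12.2) in SST and 0 to 1.51 CPM (median 0) in VIP and differed by 4.92 ± 0.56 (adjusted p = 1.4e-07). Its ligand gene Cck thus lay on the VIP side and the receptor on the SST side, as read from levels alone. The VIP reads of Cckbr came from replicates 4 and 5, and without VIP replicates 2, 4 and 5 it was listed at 0 in each VIP library left and was called higher in SST (adjusted p = 1.6e-08).

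In VIP, Grpr, the receptor for gastrin-releasing peptide, measured 1.93 to 11.8 CPM (median 4.49) in SST and 272 to 552 CPM (median 336) in VIP and differed by 5.80 ± 0.46 (adjusted p = 1.6e-10). Npy1r, a receptor for neuropeptide Y, measured 6.93 to 14.8 CPM (median 9.61) in SST and 209 to 270.4 CPM (median 249) in VIP and differed by 4.62 ± 0.28 (adjusted p = 1.5e-12), and Npy5r, another such receptor, differed by 3.33 ± 0.32 (adjusted p = 6.1e-09). Npy itself was higher in SST. Rxfp1, a relaxin family receptor, measured 1.96 to 3.86 CPM (median 2.42) in SST and 44.1 to 72.6 CPM (median 51.4) in VIP and differed by 4.42 ± 0.38 (adjusted p = 7.4e-10), and Hcrtr2, an orexin receptor, differed by 3.17 ± 0.41 (adjusted p = 1.1e-06). None of these receptor genes overlapped between the sorts.

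**Figure D3:**
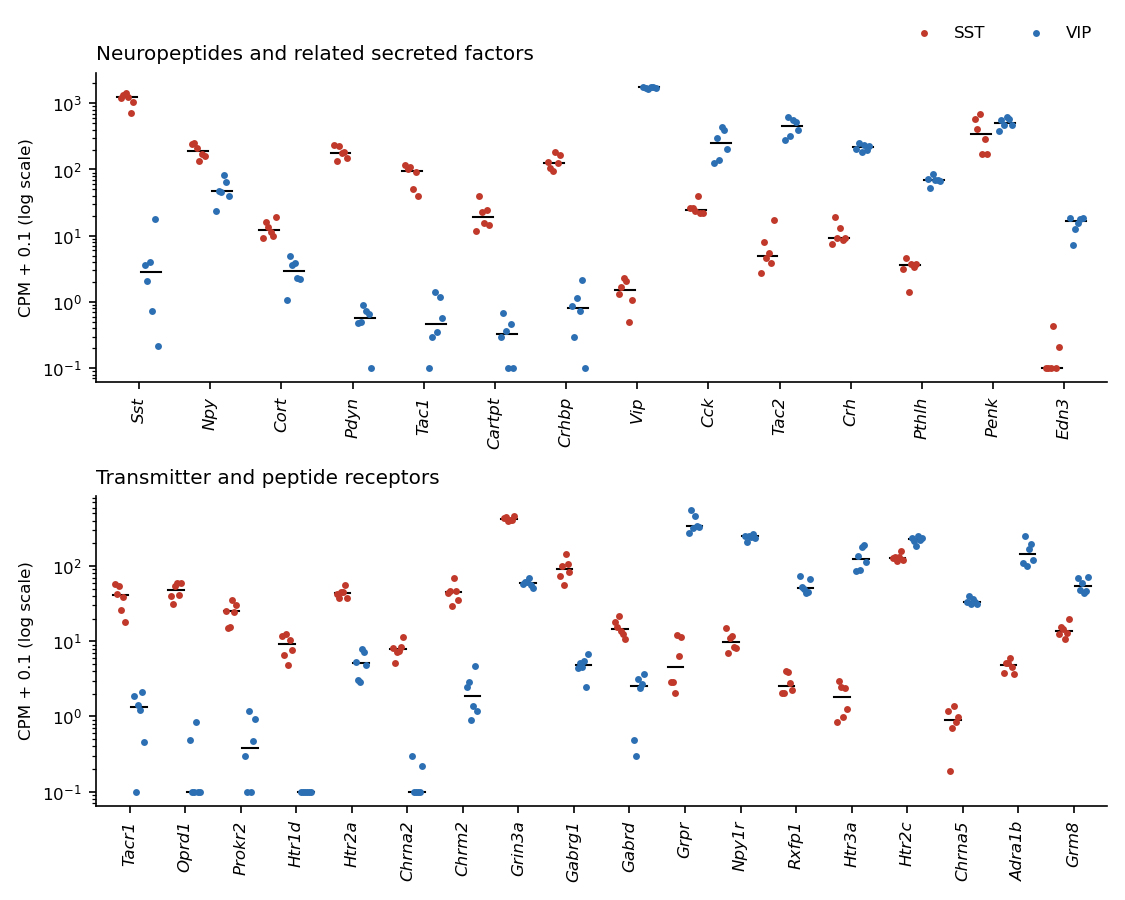
TMM-scaled CPM plus 0.1 on a log axis per SST and VIP library for secreted peptide genes (top) and for receptors (bottom); points are libraries and bars are medians of 6. Penk overlaps between the sorts, whereas Grpr runs from 272 to 552 CPM in VIP against 1.93 to 11.8 CPM in SST.

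Receptors for serotonin went both ways. Of 12 tested, 6 were higher in SST, 5 higher in VIP and 1 not called, with a median of 0.49. Htr3a, the ion channel subunit that marks caudal interneurons, measured 0.742 to 2.84 CPM (median 1.702) in SST and 85.5 to 188 CPM (median 126) in VIP and differed by 6.57 ± 0.40 (adjusted p = 1.5e-12) towards VIP. Htr1d, a receptor that couples to inhibitory G proteins, had 663 reads in SST and 0 in VIP, or at least 111-fold higher in SST, with a floor of 3 reads over the VIP group. Htr2a, a receptor that couples to Gq, measured 37.7 to 55.5 CPM (median 43.6) in SST and 2.799 to 7.79 CPM (median 5.02) in VIP and differed by 3.15 ± 0.34 (adjusted p = 4.1e-08) towards SST. Htr1a differed by 2.40 ± 0.23 (adjusted p = 8.9e-09) towards SST and Htr4 by 2.21 ± 0.27 (adjusted p = 3.7e-07) towards VIP. Htr2c, at 116 to 160.2 CPM (median 129.5) in SST and 183 to 252 CPM (median 227) in VIP, was higher in VIP by 0.80 ± 0.26 (adjusted p = 0.021), and lost the call without SST replicates 1 and 3 (adjusted p = 0.1) and without VIP replicates 2, 4 and 5 (adjusted p = 0.081). The count higher in VIP fell to 3 in either of those fits.

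Cholinergic receptors also divided by subunit. Of 19 receptor and synthesis genes tested, 6 were higher in SST, 7 higher in VIP and 6 not called, with a median of 0.18. Within POOL7098, 10 of 20 were higher in SST and 7 higher in VIP. Chrna2, the nicotinic alpha 2 subunit that marks a deep-layer Martinotti population, had 647 reads in SST and 2 in VIP, a ratio of 163 (95% counting interval 44.9 to 1347). Chrm2, the muscarinic M2 receptor, measured 29.4 to 68.2 CPM (median 45.3) in SST and 0.7997 to 4.599 CPM (median 1.79) in VIP and differed by 4.43 ± 0.44 (adjusted p = 1.4e-08) towards SST. Lypd6 and Lypd6b, secreted or membrane-tethered modulators of nicotinic receptors, differed by 5.14 ± 0.31 (adjusted p = 9.1e-13) and 3.84 ± 0.45 (adjusted p = 1.9e-07) towards SST. Chrna5, the nicotinic alpha 5 accessory subunit, measured 0.0889 to 1.27 CPM (median 0.801) in SST and 30.8 to 39.9 CPM (median 33.5) in VIP and differed by 5.39 ± 0.48 (adjusted p = 1.7e-09) towards VIP. Chrna3, which overlaps Chrna5 in the annotation, differed by 2.99 ± 0.64 (adjusted p = 0.00084) in the same direction. None of these genes overlapped between the libraries of the sorts.

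Among 13 receptors for noradrenaline, dopamine and histamine, 3 were higher in SST, 4 higher in VIP and 6 not called, with a median of 0.59. Within POOL7098, 9 of 15 were higher in SST and 4 higher in VIP, with a median of 1.65, and without VIP replicates 2, 4 and 5 the counts were 6 and 2 of 14. They were 3 and 2 of 13 without SST replicates 1 and 3. Adra1b, the alpha 1B adrenergic receptor, measured 3.54 to 5.95 CPM (median 4.75) in SST and 99.3 to 250.3 CPM (median 145) in VIP and differed by 5.02 ± 0.35 (adjusted p = 1.3e-11) towards VIP. Hrh2, the histamine H2 receptor, differed by 1.57 ± 0.37 (adjusted p = 0.0019) and Adrb1, the beta 1 adrenergic receptor, by 1.01 ± 0.31 (adjusted p = 0.016), both towards VIP. Adrb1 was not called without SST replicates 1 and 3 (adjusted p = 0.06) or without VIP replicates 2, 4 and 5 (adjusted p = 0.092). The 3 genes higher in SST were dopamine receptors. Drd1 stood at 184, 92.7, 184, 58.9, 116 and 35.4 CPM and Drd2 at 77.1, 52.1, 84.9, 19.9, 41.6 and 21.1 CPM in SST replicates 1 to 6, with the lowest values of both in replicates 4 and 6. In VIP, Drd1 measured 13.5 to 24.5 CPM (median 18.99) and Drd2 0.783 to 5.03 CPM (median 1.72), and the changes were 2.37 ± 0.33 (adjusted p = 4e-06) and 4.35 ± 0.60 (adjusted p = 2.8e-06). Both are also striatal markers.

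For GABA receptors, 9 of 18 genes were higher in SST, 5 higher in VIP and 4 not called, with a median of 0.45. Gabrb2, a beta subunit of GABA-A receptors, was higher in VIP by 0.79 ± 0.21 (adjusted p = 0.0046), with overlapping libraries. Without SST replicates 1 and 3 it was not called (adjusted p = 0.063), and the list count higher in VIP fell from 5 to 1. Gabrg1, a gamma subunit of restricted distribution, measured 55.7 to 144 CPM (median 91.1) in SST and 2.39 to 6.59 CPM (median 4.74) in VIP and differed by 4.22 ± 0.52 (adjusted p = 5.7e-07) towards SST. Gabra5, a subunit of extrasynaptic receptors, measured 32.99 to 58.1 CPM (median 48.05) in SST and 11.9 to 22.5 CPM (median 13.7) in VIP and differed by 1.66 ± 0.19 (adjusted p = 9.6e-08) towards SST. Gabrd, the delta subunit of extrasynaptic receptors, measured 10.6 to 21.2 CPM (median 14.4) in SST and 0.196 to 3.59 CPM (median 2.42) in VIP and differed by 2.84 ± 0.43 (adjusted p = 1.2e-05) towards SST, at levels far under the 163 ± 32.5 CPM of PV.

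For ionotropic glutamate receptors and their auxiliary proteins, 12 of 28 were higher in SST, 6 higher in VIP and 10 not called, with a median of 0.11. Grin3a, an NMDA receptor subunit that lowers calcium permeability, measured 395 to 465 CPM (median 419) in SST and 51.3 to 69.5 CPM (median 58.5) in VIP and differed by 2.85 ± 0.25 (adjusted p = 1.6e-09) towards SST. Gria3, an AMPA receptor subunit, measured 299 to 587 CPM (median 442) in SST and 28.8 to 89.2 CPM (median 69.2) in VIP and differed by 2.84 ± 0.23 (adjusted p = 3.7e-10). Neto1 and Neto2, auxiliary proteins of kainate receptors, differed by 2.51 ± 0.18 (adjusted p = 1.9e-11) and 3.33 ± 0.22 (adjusted p = 6.7e-12), and Grik3, a kainate receptor subunit, by 3.02 ± 0.19 (adjusted p = 2.5e-12), all towards SST. A second kainate subunit gene went the other way, with Grik4 at 2.54 to 6.09 CPM (median 4.197) in SST and 18.1 to 28.6 CPM (median 19.2) in VIP and a difference of 2.53 ± 0.29 (adjusted p = 1.4e-07) towards VIP. Shisa9, an AMPA receptor auxiliary protein, differed by 1.76 ± 0.15 (adjusted p = 3.8e-10) towards VIP. The abundant subunits Gria2 and Grin2b were not called (adjusted p = 0.2 and 0.058), but within POOL7098 both were higher in VIP, by 0.68 and 0.66 (adjusted p = 0.017 and 0.028).

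Of 10 metabotropic glutamate receptor and Homer genes, 3 were higher in SST, 4 higher in VIP and 3 not called, with a median of 0.17. Grm3, a group II receptor, differed by 3.0 ± 0.34 (adjusted p = 1.4e-07) towards SST. Grm8, a presynaptic group III receptor, measured 10.6 to 19.9 CPM (median 13.6) in SST and 43.1 to 71.9 CPM (median 53.5) in VIP and differed by 2.03 ± 0.28 (adjusted p = 2.8e-06), and Homer2, a scaffold for group I receptors, by 2.16 ± 0.25 (adjusted p = 2.1e-07), both towards VIP. These 3 genes did not overlap between the sorts.

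Potassium channel genes were called on both sides. Of 43 voltage-gated subunits, 17 were higher in SST, 7 higher in VIP and 19 not called, with a median of 0.38. Kcnh5, an ether-a-go-go channel, measured 31.98 to 55.3 CPM (median 44.97) in SST and 3.23 to 7.54 CPM (median 3.71) in VIP and differed by 3.33 ± 0.26 (adjusted p = 1.7e-10) towards SST. Kcnc4, a channel of the Kv3 family, differed by 2.42 ± 0.23 (adjusted p = 4.6e-09) towards SST. Of 28 other potassium and HCN channel genes, 11 were higher in SST and 8 in VIP, with a median of 0.06, and 4 were higher in VIP without SST replicates 1 and 3. Kcnt2, a sodium-activated channel, measured 31.6 to 79.4 CPM (median 39.7) in SST and 337 to 1037 CPM (median 640) in VIP and differed by 3.89 ± 0.32 (adjusted p = 4.3e-10) towards VIP. The calcium-activated SK channels diverged, with Kcnn2 higher in VIP by 2.77 ± 0.24 (adjusted p = 1.3e-09) and Kcnn3 higher in SST by 2.08 ± 0.25 (adjusted p = 3.7e-07). Kcnj2, an inward rectifier, was higher in VIP by 2.28 ± 0.31 (adjusted p = 2.5e-06), and Kcnk12, a tandem pore channel, higher in SST by 3.34 ± 0.39 (adjusted p = 2.1e-07).

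Of 29 sodium and calcium channel genes, 12 were higher in SST, 6 higher in VIP and 11 not called, with a median of 0.21. Cacna2d2, an auxiliary calcium channel subunit, measured 138 to 184 CPM (median 159) in SST and 10.1 to 23.9 CPM (median 13.1) in VIP and differed by 3.34 ± 0.23 (adjusted p = 1.3e-11) towards SST. Scn4b, the sodium channel beta 4 subunit of fast-spiking and striatal neurons, measured 12.3 to 77.5 CPM (median 28.2) in SST and 0 to 2.21 CPM (median 0.1999) in VIP and differed by 5.34 ± 0.73 (adjusted p = 2.6e-06), with replicates 4 and 6 among its lower SST values. Its difference was 4.70 without SST replicates 1 and 3 and 7.65 without VIP replicates 2, 4 and 5. The T-type calcium channels were divided, with Cacna1i higher in SST by 1.17 ± 0.23 (adjusted p = 0.00028) and Cacna1h and Cacna1g higher in VIP by 1.82 ± 0.26 (adjusted p = 4e-06) and 1.14 ± 0.25 (adjusted p = 0.00092). The sodium channel Scn9a was higher in VIP by 1.87 ± 0.37 (adjusted p = 0.00037). Cacna1g was not called within POOL7098 (adjusted p = 0.087) or without VIP replicates 2, 4 and 5 (adjusted p = 0.075).

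Calcium-binding proteins, the classical histological markers of interneurons, were called on both sides. Of 21 tested, 7 were higher in SST, 5 higher in VIP and 9 not called, with a median of 0.48, and 3 were higher in VIP within POOL7098 or without VIP replicates 2, 4 and 5. Calb1, which encodes calbindin, measured 237 to 436 CPM (median 392.5) in SST and 1.92 to 8.095 CPM (median 2.81) in VIP and differed by 6.71 ± 0.32 (adjusted p = 8e-15) towards SST. Calb2, which encodes calretinin, measured 9.97 to 17.5 CPM (median 11.05) in SST and 50.1 to 115 CPM (median 106) in VIP and differed by 3.06 ± 0.37 (adjusted p = 3e-07) towards VIP. The sorts did not overlap for either gene, and calretinin RNA was detectable in every SST library. Pvalb, which encodes parvalbumin, measured 1.24 to 5.39 CPM (median 3.01) in SST and 0.1198 to 0.9199 CPM (median 0.195) in VIP and was higher in SST by 3.15 ± 0.47 (adjusted p = 1e-05), against 201 ± 21.4 CPM in PV.

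The machinery of vesicle release was higher in SST more often than in VIP. Of 46 genes, 25 were higher in SST, 4 higher in VIP and 17 not called, with a median of 0.64. Within POOL7098 the counts were 30 and 3, and 2 were higher in VIP without SST replicates 1 and 3 or without VIP replicates 2, 4 and 5. Unc13c, a vesicle priming protein, measured 89.3 to 122 CPM (median 111) in SST and 0.719 to 12.3 CPM (median 3.82) in VIP and differed by 4.65 ± 0.45 (adjusted p = 8.9e-09). Sv2b, a synaptic vesicle glycoprotein that is also an excitatory neuron marker, measured 109.6 to 230.3 CPM (median 139) in SST and 1.68 to 22.3 CPM (median 7.44) in VIP and differed by 4.07 ± 0.51 (adjusted p = 7.1e-07). Doc2b, a calcium sensor of release, differed by 3.91 ± 0.29 (adjusted p = 4.6e-11), Stxbp6, a syntaxin-binding protein, by 3.86 ± 0.24 (adjusted p = 1.5e-12), and Cplx1, a complexin, by 1.13 ± 0.24 (adjusted p = 0.00073). The difference of Cplx1 was 1.94 within POOL7098. The genes higher in VIP included Synpr, a vesicle membrane protein, at 373 to 1443 CPM (median 953) in SST and 1669 to 4280.4 CPM (median 3032) in VIP and a difference of 1.71 ± 0.26 (adjusted p = 1.7e-05), and Syt17, a synaptotagmin, which differed by 1.26 ± 0.20 (adjusted p = 2.5e-05). Rab3c, a small GTPase of vesicles, measured 1607 to 2394 CPM (median 1983) in SST and 1679 to 2217 CPM (median 1783) in VIP and was not called (adjusted p = 0.61). Total reads and excitatory markers were also higher in SST, and their part in these counts was not tested.

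Synaptic adhesion and secreted organisers showed large single differences in an otherwise even list. Of 45 tested, 10 were higher in SST, 11 higher in VIP and 24 not called, with a median of -0.0082, and within POOL7098 the counts were 17 and 7. Without SST replicates 1 and 3 the count higher in VIP was 6, and without VIP replicates 2, 4 and 5 the counts were 16 and 8. Nxph1 and Nxph2 encode neurexophilins, secreted ligands of neurexins. Nxph1 measured 378 to 765 CPM (median 520) in SST and 7.43 to 19.7 CPM (median 12.2) in VIP and differed by 5.37 ± 0.40 (adjusted p = 4.9e-11), and Nxph2 differed by 6.92 ± 0.65 (adjusted p = 4e-09), both towards SST. Cbln2, a cerebellin that links neurexins to their partners, measured 3.47 to 6.53 CPM (median 5.06) in SST and 233 to 303 CPM (median 254) in VIP and differed by 5.68 ± 0.26 (adjusted p = 3.7e-15) towards VIP, with no overlap. Ptprd, a receptor phosphatase that organises synapses, measured 149 to 362 CPM (median 231) in SST and 1133 to 2526 CPM (median 1710.2) in VIP and differed by 2.87 ± 0.22 (adjusted p = 1.3e-10), and Slitrk2, one of its family of partners, differed by 2.51 ± 0.22 (adjusted p = 9.1e-10), both towards VIP.

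A pair of genes on the SST marker list did not pass the test. Elfn1, a postsynaptic organiser of inputs to SST cells, measured 202 to 332 CPM (median 237) in SST and 146 to 305 CPM (median 205) in VIP and was not called over all libraries (adjusted p = 0.56), though it was higher in SST within POOL7098 by 0.76 (adjusted p = 0.0065). Cbln4, a cerebellin used by SST cells, measured 45.7 to 219 CPM (median 99.8) in SST and 100.5 to 231 CPM (median 167) in VIP and was not called (adjusted p = 0.23). Both were far above their means of 9.47 ± 6.17 and 4.86 ± 1.31 CPM in PV. The other 18 of the 20 SST marker genes were called higher in SST, with a median of 3.34. Of 21 VIP marker genes tested, 17 were higher in VIP and 4 not called, with a median of -3.78. Those lists were written with earlier results known, so their direction is no independent evidence.

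Among 24 cadherins and protocadherins, 7 were higher in SST, 9 higher in VIP and 8 not called, with a median of 0.10. Cdh9, a classical cadherin of specific synapses, measured 85.5 to 109 CPM (median 105) in SST and 9.05 to 19.6 CPM (median 13.6) in VIP and differed by 2.78 ± 0.19 (adjusted p = 1.1e-11) towards SST. Towards VIP, Cdh20 measured 5.33 to 10.9 CPM (median 5.92) in SST and 50.6 to 61.96 CPM (median 54.4) in VIP and differed by 3.04 ± 0.32 (adjusted p = 4.2e-08), Pcdh15, known from hair cell tip links, differed by 2.52 ± 0.34 (adjusted p = 2.2e-06), and Cdh6 by 2.16 ± 0.27 (adjusted p = 7.8e-07). Among 57 axon guidance ligands and receptors, 21 were higher in SST, 13 higher in VIP and 23 not called, with a median of 0.33. Sema3a, a secreted repellent, measured 119.8 to 192 CPM (median 169.8) in SST and 3.52 to 10.9 CPM (median 6.99) in VIP and differed by 4.56 ± 0.25 (adjusted p = 1.9e-13), Unc5d, a netrin receptor, measured 161 to 292 CPM (median 209) in SST and 8.8 to 11.1 CPM (median 9.88) in VIP and differed by 4.46 ± 0.19 (adjusted p = 1.3e-15), and Slit2, a ligand of Robo receptors, differed by 4.34 ± 0.38 (adjusted p = 9.7e-10), all towards SST. Another secreted semaphorin was on the opposite side, as Sema3c measured 15.6 to 37.9 CPM (median 24.7) in SST and 135 to 349.6 CPM (median 308) in VIP and differed by 3.46 ± 0.26 (adjusted p = 8.7e-11) towards VIP. The membrane semaphorins Sema5a and Sema5b were higher in VIP by 2.45 ± 0.20 (adjusted p = 4.1e-10) and 3.20 ± 0.35 (adjusted p = 6.7e-08).

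Growth factors and their receptors leaned towards VIP over all libraries. Of 48 tested, 12 were higher in SST, 20 higher in VIP and 16 not called, with a median of -0.46. The counts were nearer to even within POOL7098, at 15 and 17 of 46 with a median of -0.41. They were 12 and 15 without SST replicates 1 and 3. Egfr, the epidermal growth factor receptor, measured 2.23 to 8.25 CPM (median 5.15) in SST and 268 to 397 CPM (median 342) in VIP and differed by 6.05 ± 0.26 (adjusted p = 1.1e-15). Kit, the stem cell factor receptor, measured 36.2 to 61.1 CPM (median 50.8) in SST and 552 to 695 CPM (median 680.4) in VIP and differed by 3.67 ± 0.30 (adjusted p = 2.4e-10). Igf1, which encodes insulin-like growth factor 1, measured 70.2 to 213 CPM (median 143) in SST and 1056 to 2002 CPM (median 1429) in VIP and differed by 3.34 ± 0.26 (adjusted p = 1.6e-10). These 3 genes were at high levels in every VIP library and overlapped with no SST library. Rspo1, an enhancer of Wnt signalling, differed by 3.78 ± 0.60 (adjusted p = 2.3e-05) towards VIP. Pdgfra, a growth factor receptor that is also an oligodendrocyte precursor marker, measured 0.133 to 1.65 CPM (median 0.948) in SST and 12.7 to 19.6 CPM (median 15.5) in VIP and differed by 4.10 ± 0.64 (adjusted p = 2e-05). The other defining precursor markers Cspg4, Olig1, Olig2 and Gpr17 were too low to be tested in the fit to all libraries. Cacng4, also on the precursor list, was tested there and not called.

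Towards SST, Gfra2, a receptor for neurturin, measured 51.3 to 68.7 CPM (median 58.7) in SST and 2.72 to 5.78 CPM (median 4.304) in VIP and differed by 3.79 ± 0.29 (adjusted p = 7.1e-11), and Nrg1, the neuregulin 1 ligand of Erbb4, measured 55.5 to 88.9 CPM (median 65.7) in SST and 3.39 to 7.77 CPM (median 4.23) in VIP and differed by 3.75 ± 0.28 (adjusted p = 6.8e-11). The receptor gene Erbb4 was higher in VIP. Fgf10, a fibroblast growth factor, differed by 5.21 ± 0.53 (adjusted p = 1.7e-08) towards SST. Bdnf, a neurotrophin made mainly by excitatory neurons, measured 4.203 to 14.8 CPM (median 5.56) in SST and 0 to 2.58 CPM (median 0.322) in VIP and differed by 3.51 ± 0.53 (adjusted p = 1.3e-05) towards SST, at levels far under the 78.1 ± 29.9 CPM of EXC.

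Of 39 extracellular matrix genes, 15 were higher in SST, 8 higher in VIP and 16 not called, with a median of 0.61. Reln, which encodes reelin, measured 581 to 813 CPM (median 651) in SST and 34.8 to 57.5 CPM (median 50.4) in VIP and differed by 3.80 ± 0.21 (adjusted p = 1.6e-13) towards SST. Spon1, which encodes the secreted protein F-spondin, measured 185 to 342 CPM (median 197) in SST and 2.94 to 6.91 CPM (median 4.4) in VIP and differed by 5.71 ± 0.24 (adjusted p = 1.1e-15), and Sulf1, a heparan sulphate sulphatase, differed by 4.43 ± 0.52 (adjusted p = 2.3e-07), both towards SST. Col15a1, a collagen of basement membranes, measured 0.178 to 0.937 CPM (median 0.544) in SST and 13.2 to 35.5 CPM (median 16.8) in VIP and differed by 5.16 ± 0.67 (adjusted p = 1.2e-06) towards VIP. The secreted VIP-cell markers Crispld2 and Cxcl14, the latter a chemokine, differed by 6.28 ± 0.54 (adjusted p = 8.8e-10) and 6.46 ± 0.40 (adjusted p = 1.5e-12). Libraries did not overlap for these 6 genes.

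Of 38 genes of nitric oxide and cyclic nucleotide signalling, 14 were higher in SST, 9 higher in VIP and 15 not called, with a median of 0.21. Pde1a, a calcium-dependent phosphodiesterase, measured 281 to 645 CPM (median 432) in SST and 15.1 to 42.1 CPM (median 24.6) in VIP and differed by 4.07 ± 0.34 (adjusted p = 6e-10) towards SST. The kinases activated by cyclic GMP, Prkg1 and Prkg2, were higher in SST by 2.95 ± 0.23 (adjusted p = 1.4e-10) and 3.14 ± 0.53 (adjusted p = 4.9e-05). Pde5a, which degrades cyclic GMP, measured 4.62 to 9.63 CPM (median 6.93) in SST and 84.2 to 117 CPM (median 111) in VIP and was higher in VIP by 3.92 ± 0.34 (adjusted p = 8.6e-10), with a mean of 139 ± 22.8 CPM in PV. Regulators of G protein signalling were divided, with Rgs4 higher in SST by 3.40 ± 0.28 (adjusted p = 3.6e-10) and Rgs12 and Rgs16 higher in VIP by 3.81 ± 0.29 (adjusted p = 6.7e-11) and 4.23 ± 0.47 (adjusted p = 7.9e-08).

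**Figure D4:**
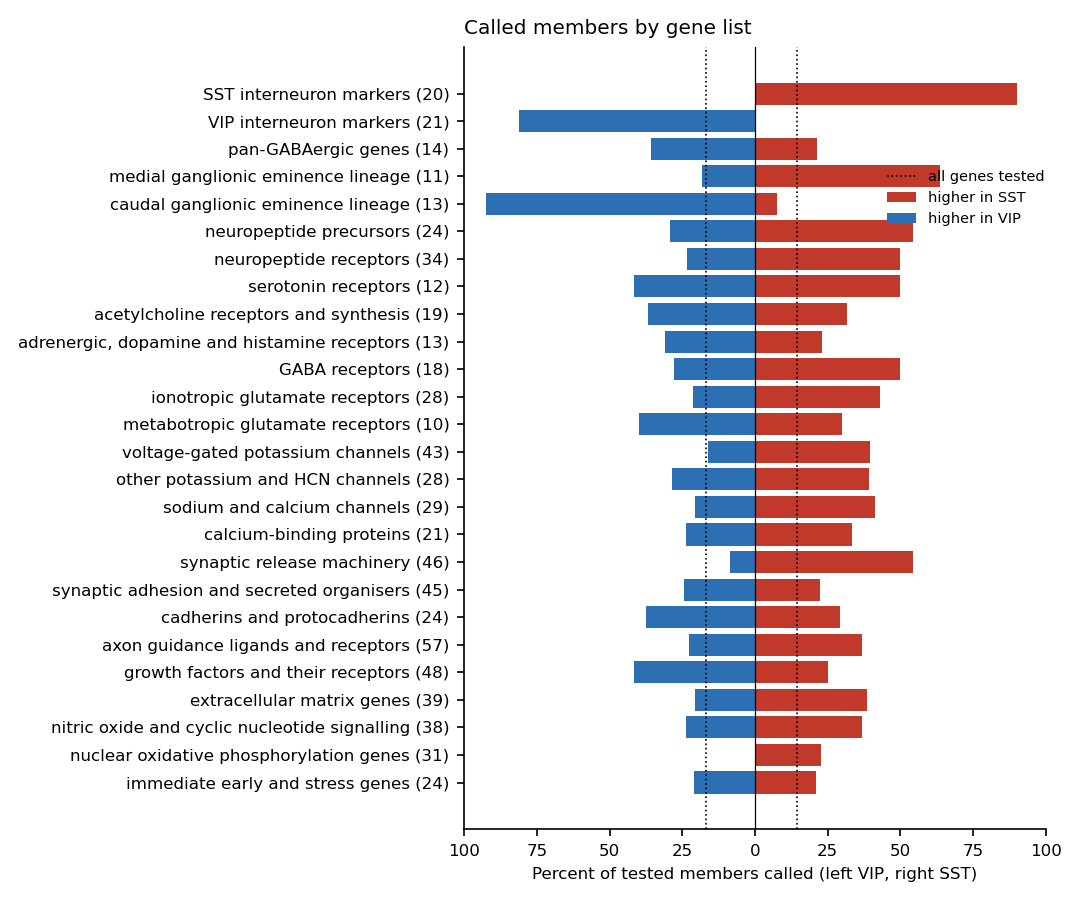
Percent of the tested members of each gene list that were called higher in SST (right) or higher in VIP (left) at an adjusted p under 0.05, with the number tested in brackets; dotted lines mark 14.6% and 16.7% of all genes tested. The caudal lineage list has 12 of 13 members on the VIP side and the medial lineage list 7 of 11 on the SST side.

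Of 31 nuclear genes of oxidative phosphorylation, 7 were higher in SST and the other 24 not called, with a median of 0.56. Within POOL7098 the count higher in SST was 19 with a median of 0.92, and without VIP replicates 2, 4 and 5 it was 22. Cox4i1, a subunit of cytochrome oxidase, measured 85.03 to 139 CPM (median 109) in SST and 33.8 to 95.4 CPM (median 69.7) in VIP and differed by 0.84 ± 0.24 (adjusted p = 0.0095), and Ndufa4 differed by 0.79 ± 0.23 (adjusted p = 0.01). Their summed level was 3296 to 4345 CPM in SST and 1765 to 3642 CPM in VIP (exact two-sided permutation p = 0.0087). Over all libraries the mitochondrial genome gave 10 testable genes, of which edgeR called 0 at an adjusted p under 0.05 and 0 at an unadjusted p under 0.05, as did DESeq2. The median of that list changed sign between fits. It was -0.65 over all libraries and 0.97 within POOL7098, where 1 gene was called higher in SST. With the pool as a covariate it was 0.72, and without VIP replicates 2, 4 and 5 it was 0.75.

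Of 24 immediate early and stress genes, which are induced by activity and by dissociation, 5 were higher in SST, 5 higher in VIP and 14 not called, with a median of -0.07, and 3 were higher in VIP within POOL7098. Fos measured 6.64 to 17.1 CPM (median 10.3) in SST and 18.2 to 40.7 CPM (median 36.3) in VIP and was higher in VIP by 1.94 ± 0.32 (adjusted p = 3.3e-05), and Npas4 measured 2.31 to 11.7 CPM (median 5.98) in SST and 14.4 to 82.6 CPM (median 31.8) in VIP and was higher in VIP by 2.60 ± 0.45 (adjusted p = 6.4e-05). Egr2 and Egr3, zinc finger factors, were higher in SST by 2.40 ± 0.59 (adjusted p = 0.0029) and 2.07 ± 0.37 (adjusted p = 0.0001). The summed level of the list was 362 to 840 CPM in SST and 397 to 871 CPM in VIP, with overlap (exact p = 0.67).

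Markers of other cells moved with the subtypes in both directions. Of 18 excitatory neuron markers, 15 were higher in SST and the other 3 not called, with a median of 1.95. The median was 3.79 within POOL7098, 3.64 with the pool as a covariate and 3.33 without VIP replicates 2, 4 and 5. Their sum was 1252 to 1614 CPM in SST against 513 to 1078 CPM in VIP and a mean of 6709 CPM in EXC. Slc17a7, the vesicular glutamate transporter of cortical pyramidal cells, stood at 44.7, 33.9, 53.4, 60.4, 22.5 and 40.1 CPM in SST replicates 1 to 6 and at 1.75, 8.22, 1.999, 7.79, 24.1 and 0.719 CPM in VIP replicates 1 to 6, against 532 ± 214 CPM in EXC. VIP replicates 2, 4 and 5 held most of the VIP level, and the difference was 2.53 ± 0.50 (adjusted p = 0.00034) over all libraries and 4.73 within POOL7098. Of 12 astrocyte markers, 4 were higher in VIP and the other 8 not called, with a median of -1.11 and, without VIP replicates 2, 4 and 5, 2 higher in VIP and a median of -0.087. The sums were 578 to 670 CPM in SST and 1481 to 2315 CPM in VIP. Slc1a2, an astrocytic glutamate transporter gene with reads in neurons too, measured 213 to 306 CPM (median 238) in SST and 1080 to 1508 CPM (median 1161) in VIP and was higher in VIP. Aldoc differed by 2.06 ± 0.53 (adjusted p = 0.0044) and Atp1b2 by 0.66 ± 0.25 (adjusted p = 0.044), and neither was called without VIP replicates 2, 4 and 5 (adjusted p = 0.086 and 0.66). The difference of Atp1b2 was 0.14 with the pool as a covariate (adjusted p = 0.72) and 0.04 within POOL7098 (adjusted p = 0.86). It also lost the call without SST replicate 1, 3, 4, 5 or 6 or VIP replicate 2, 4 or 5 (adjusted p from 0.067 to 0.10). Gfap, Aqp4, Gja1 and Sox9, among the defining astrocyte markers, were not called.

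Summed oligodendrocyte markers were 90.9 to 226 CPM in SST and 60.3 to 754 CPM in VIP, with VIP replicates 2, 4 and 5 highest and overlap between the sorts (exact p = 0.28). Summed microglia markers were 36.7 to 64.2 CPM in SST and 43.8 to 92.8 CPM in VIP, with means of 48.6 and 72.4 CPM. The exact permutation p was 0.032, or 0.062 after adjustment. Of 10 microglia markers tested over all libraries 1 was higher in VIP, and of 11 within POOL7098 5 were. Summed endothelial markers were 5.05 to 12.03 CPM in SST and 2.14 to 19.86 CPM in VIP (exact p = 0.47). The PV list had 9 of 15 members higher in SST and 3 higher in VIP, and the neurogliaform list 6 and 3 of 11. The part of these cells in the differences between SST and VIP was not tested.

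**Figure D5:**
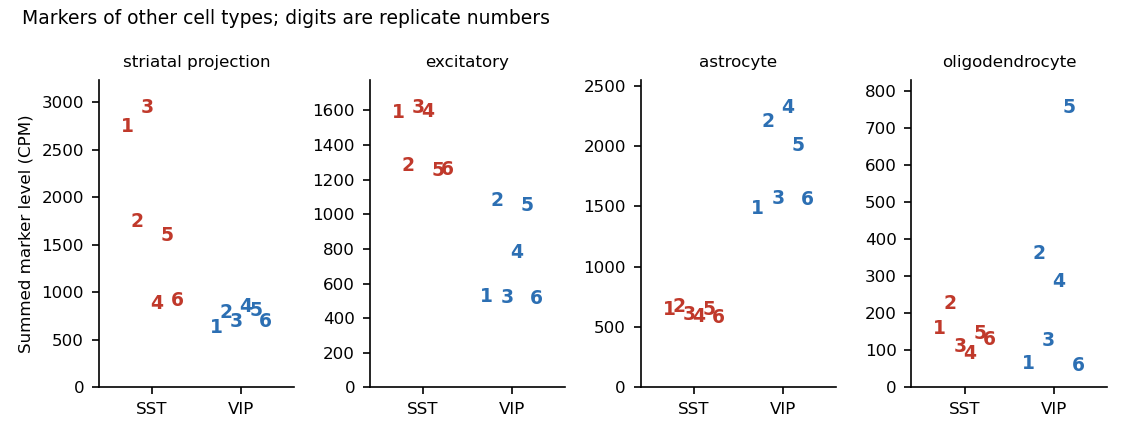
Summed TMM-scaled CPM of the marker genes of 4 other cell types in each SST and VIP library, with each digit placed at the value of the replicate of that number; each panel has its own linear axis from 0. Striatal markers are highest in SST replicates 1 and 3, and oligodendrocyte markers in VIP replicates 2, 4 and 5.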

How the data were processed

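Bulk RNA-seq of sorted neurons gave 1 table per library with 36528 genes by NCBI Gene number. Per the file headers, the authors deposited a count of reads that align uniquely to each gene model and a size-factor-adjusted RPKM value. Reads were aligned with GSNAP to GRCm38, per the submitters' processing notes; no source used here gives versions, the counting program or the strand setting. RPKM values were used only to order peptide genes per length. Symbols came from RefSeq for 31049 genes and from GENCODE for 77. Unnamed genes took 1.11% to 2.98% of the reads in SST and VIP and stayed in the tests.

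With edgeR 4.0.16 in R 4.3.3, genes were filtered by filterByExpr by subtype, libraries scaled by TMM, and a model of subtype and sex fitted to all 24 libraries. The quasi-likelihood F test of SST minus VIP was adjusted by Benjamini-Hochberg over all genes tested, and genes with an adjusted p under 0.05 were called. The SE of a log2 fold change is its size divided by the square root of F. The test was repeated on the 7 libraries of POOL7098 with new filtering and scaling. Sums of markers were compared with exact two-sided permutation tests, of which 21 were run; the p-values printed are unadjusted, and after Benjamini-Hochberg adjustment the smallest became 0.0057. Within POOL7098, 5 against 2 libraries allow no exact p under 0.095. Counting intervals are at 95%, and a floor of 3 reads over a group bounds a group at 0; both cover counting error only. Pairs of libraries within a subtype differed by at least 10.6 in chi-square per degree of freedom, so none was treated as a copy. Replicates were numbered in order of deposition. The fits were also run on simulated counts, with far fewer changed genes than were called here and no effect of sex or pool. That run therefore does not cover such effects.

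The comparison, the members and the gene lists were chosen with earlier results of these data known. The rule for naming genes takes the 12 largest called differences in each direction among non-overlapping genes of at least 10 CPM, up to 5 called members per direction of each function list with at least 5 CPM and up to 2 not called, a fixed set of marker genes, and up to 3 members of each list of other cells; a part of these is described, and some members are not reported here. The alternatives were DESeq2 1.42.0, edgeR with DESeq2 size factors or with upper-quartile scaling, other filters, no sex term, pool as a covariate, subsets of libraries, robust fitting, a test against a 2-fold change, and leaving out each library. Figures were drawn with matplotlib 3.10.9.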

Additional observations from a re-analysis of the deposited data

Results flagged for a closer look

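In groups of 6 libraries, a value was picked out when its gap to the nearest other library divided by the whole range exceeded Dixon's 95% critical value. Of the groups examined, one per sort for each named gene and each summed quantity, 29 (7.8%) met this, where chance alone gives about 1 in 20. VIP replicate 5 accounted for 10 of the 29 and SST replicate 4 for 6. VIP replicate 5 was the highest of its sort for Sst (17.7 CPM), Slc17a7 (24.1 CPM), Meis2 (11.6 CPM), Kcnh5 (7.54 CPM), Unc13c (12.3 CPM), Doc2b (3.68 CPM), Bdnf (2.58 CPM) and Col15a1 (35.5 CPM), and the lowest for Scg2 (520.7 CPM) and Kcnn3 (4.97 CPM). It also had the highest share of mitochondrial reads and of oligodendrocyte markers among the VIP libraries, and the part of that in these values was not tested. VIP replicate 2 was highest for Syt17 (69.7 CPM), Cbln2 (302.9 CPM) and Npas4 (82.6 CPM) and lowest for Pde5a (84.2 CPM). VIP replicate 4 was highest for Gabra5 (22.5 CPM), Rab3c (2217 CPM) and Fgf10 (0.754 CPM).

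Among the SST libraries, replicate 4 was highest for Cck (40.1 CPM), Kcnt2 (79.4 CPM), Slit2 (65.6 CPM), Bdnf (14.8 CPM), Edn3 (0.335 CPM) and Slc18a3 (0.0669 CPM). Replicate 3 was lowest for Calb1 (237.1 CPM) and Cdh9 (85.5 CPM). Replicate 6 was highest for Tac2 (17.3 CPM), replicate 1 for Sycp1 (0.247 CPM), and replicate 5 for Scn9a (13.4 CPM) and Chat (0.0665 CPM). The values for Chat and Slc18a3 rest on 1 read each. Overlap between the sorts was judged with all of these values included.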

How the results depend on the processing

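Over the 28 alternatives, 137 of the 157 named genes that were called kept their call and direction in each one where they were tested, 0 reversed and 20 lost the call in at least 1. Outside the test against a 2-fold change and the fits to 1 sex, 9 lost it. These were Gad1, Gad2, Maf, Htr2c, Adrb1, Gabrb2, Cacna1g, Atp1b2 and Aldoc. Within POOL7098 the median of the list was 1.36 for neuropeptide precursors, 0.80 for serotonin receptors, 0.67 for voltage-gated potassium channels, 0.98 for synaptic release and 0.57 for axon guidance, and without SST replicates 1 and 3 it was 0.27 for calcium-binding proteins and -0.25 for growth factors, each over 1.5 times from the value reported. Other lists moved as much in either fit. Within POOL7098 the median was also 0.65 for acetylcholine genes, 0.28 for ionotropic and 0.38 for metabotropic glutamate receptors. It was 0.29 for other potassium channels, 0.33 for sodium and calcium channels, 0.36 for cyclic nucleotide signalling and 0.21 for pan-GABAergic genes. The sign changed for synaptic adhesion (0.28) and immediate early genes (0.10). Of 2296 recounts of list members, 2086 stayed within 1.5 times the value reported. The test against a 2-fold change called 1324 genes, 536 higher in SST and 788 higher in VIP, by construction fewer. Female libraries alone gave 2649 calls, 1147 and 1502, and male libraries alone gave 1306 higher in SST, each with fewer samples. POOL7098 alone gave 3386 higher in SST, and the cause was not tested. Leaving out 1 library at a time gave 3550 to 4760 calls, 1674 to 2205 higher in SST and 1876 to 2565 higher in VIP. Within POOL7098 the ranges were 3170 to 6827, 1528 to 3325 and 1642 to 3502, the lowest without VIP replicate 1. The interaction with sex stayed at 0 genes in every fit, with 70 to 776 genes at an unadjusted p under 0.05 when a library was left out. DESeq2, which tested 28988 genes with no filter on counts, gave a median log2 fold change of -0.31 and 38.0% of its calls higher in SST, against 46.5% in edgeR. That share was 47.1% in edgeR with no filter on low counts. It moved with the scaling in edgeR on the same 14890 genes. DESeq2 size factors gave 1855 genes higher in SST and 2772 higher in VIP (40.1% in SST), and upper-quartile factors gave 1929 and 2667 (42.0%). Leaving out SST replicates 1 and 3 gave 2046 and 1813 calls, and leaving out VIP replicates 2, 4 and 5 gave 2776 and 2801.

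A pair of genes reported as not called changed sign in fits to 1 sex, without a call. Penk gave 0.0375 in males and Cbln4 0.0477 in females. No paired analysis was possible because the labels carry no replicate numbers, and those used here are in the order of deposition. At the depth of the VIP libraries, genes with under 10 reads over the group have folds set mainly by counting error.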
